A study of Homo sapiens with 6 samples.

Results

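Box C/D small nucleolar RNAs (snoRNAs) of the polysomal RNA of K562 cells were compared between RNH1 knockout (KO) and wild-type (WT) cells. The members were every row of the gene table whose symbol starts with SNORD and whose mean over the 6 samples was at least 10 normalized counts, the copies of U3 included. They were therefore chosen by their measured level over both genotypes together. This gave 69 of 284 SNORD rows and 69 of the 16652 genes tested. K562 is a human erythroleukemia line, which the labels call lymphoblasts from bone marrow, and RNH1 encodes the ribonuclease inhibitor. Polysome fractions were taken from sucrose gradients of 3 RNH1 KO and 3 RNH1 WT samples, all treated with cycloheximide before lysis, and libraries were made from total RNA of those fractions without selecting for poly(A). The knockout was made with CRISPR/Cas9. The study's methods call the 3 replicates of each genotype independent, and do not say whether they were separate cultures or whether the KO line is 1 clone, so each p-value speaks of the spread among these 6 samples alone. In such bulk RNA, fewer cells of a type and less RNA per cell cannot be told apart.

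Box C/D snoRNAs carry a box C near the 5′ end and a box D near the 3′ end, which bind the proteins SNU13, NOP56, NOP58 and the methyltransferase fibrillarin (FBL). Most of them base-pair with ribosomal RNA or U6 snRNA and guide ribose methylation there. A few, U3, U8, U13, U14 and U22, are needed for processing of the ribosomal RNA precursor. Most human box C/D snoRNAs are cut from the introns of host genes, many of which encode ribosomal proteins, while U3 and U13 have promoters of their own. They reside in the nucleolus, and a polysome gradient holds them only as RNA that sediments with or into those fractions.

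Between 34908202 and 46256928 reads per sample were counted in genes. RNH1 itself had 1058, 1144 and 997 normalized counts in the KO samples, against 4566, 2857 and 1865 in the WT samples. Of 12 K562 markers, 11 passed the filter and only HBE1 was at 0 in every sample, and their summed level was 90311 to 101931 in KO samples, against 124931 to 129805 in WT samples. Of 10 markers of other blood cells 5 passed the filter, LYZ and ITGAM being the highest, MS4A1 was at 0, and the sums were 4034 to 4741 in KO samples, against 3965 to 5431 in WT samples. The part of these differences in the results was not tested. The WT samples differed among themselves: WT replicate 2 held the lowest WT value for 41 of the 69 members and for 13 of the 16 members called lower, and WT replicate 3 held the highest WT value for 41 members.

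U3 made up nearly the whole of the box C/D reads. Of the 69 members, 56 are under 100 bases. Their median per kilobase of annotated length was 429 normalized counts in KO samples and 406 in WT samples. For the 9 members of at least 100 bases outside U3 it was 589 in KO samples and 914 in WT samples. Whether the libraries recovered RNAs of all lengths equally was not tested, so shares of reads are not shares of RNA molecules. U3, which pairs with the precursor of 18S ribosomal RNA, is annotated in several near-identical copies on chromosome 17 of GRCh38, of which SNORD3A (ENSG00000263934, plus strand) spans 699 bases in the annotation. Its first 218 bases, the length of the row SNORD3D, from which they differ by 3 edits, lie at chr17:19188016-19188233, taken from GENCODE 44 on GRCh38 as are all sequences here, and are shown because this RNA holds most of the box C/D reads, with the first TGATGA (box C) and the last CTGA (box D) in capitals.
SNORD3A: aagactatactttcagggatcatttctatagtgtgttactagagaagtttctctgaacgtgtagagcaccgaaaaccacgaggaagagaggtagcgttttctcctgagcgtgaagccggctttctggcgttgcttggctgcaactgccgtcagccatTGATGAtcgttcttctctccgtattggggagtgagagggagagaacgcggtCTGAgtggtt
SNORD3B-1, SNORD3B-2 and SNORD3C differ from these 218 bases by 1 edit each (99.5% identity), so how reads were divided among the copies is uncertain.

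SNORD3A fell in the KO samples. Its normalized count was 108445, 105652 and 150302 in KO samples, against 703329, 267315 and 1122426 in WT samples. The KO samples all lay under the lowest WT sample, and the WT samples spread far more widely than the KO samples (121466 ± 25012 in KO samples and 697690 ± 427583 in WT samples, SD, n = 3 each). The mean was 17.4% of the WT mean, and KO over WT gave a log2 fold change of -2.31 (limma, standard error 0.40, adjusted p = 0.000459), or -2.89 without WT replicate 2. The other copies followed at far lower levels. SNORD3B-2 had 305, 494 and 307 normalized counts in KO samples, against 5988, 1042 and 4560 in WT samples (log2 fold change -3.09, limma adjusted p = 0.0272). SNORD3C had 207, 161 and 288 in KO samples, against 1172, 314 and 1201 in WT samples (log2 fold change -1.84, limma adjusted p = 0.0155). In both copies the groups did not overlap, with WT replicate 2 nearest to the KO samples. For SNORD3B-1, with 148, 126 and 164 in KO samples, against 714, 250 and 2462 in WT samples, the log2 fold change was -2.38 and the limma adjusted p of 0.0983 lay just inside the threshold of 0.1. Leaving out a KO sample ended the call of SNORD3B-2 in 2 of 3 cases (adjusted p up to 0.137), of SNORD3C in 1 case (adjusted p = 0.108 without KO replicate 2) and of SNORD3B-1 in all 3 cases (adjusted p up to 0.278), and that of SNORD3B-1 was also lost without WT replicate 1 (adjusted p = 0.101). The log2 fold change of SNORD3B-1 was -3.18 without WT replicate 2 and -1.53 without WT replicate 3.

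As a share of all reads counted in genes, the SNORD rows took 0.317%, 0.310% and 0.401% in KO samples, against 1.49%, 0.612% and 2.53% in WT samples. The Wilson 95% intervals of these shares reached at most 0.00488 percentage points either side and cover counting error only. The means were 0.343% ± 0.0506 in KO samples and 1.54% ± 0.958 in WT samples (SD, n = 3 each), with no overlap between the groups (two-sided exact permutation test, p = 0.1, the smallest that 3 against 3 samples can give). The KO minus WT difference was -1.20 percentage points, or -1.66 without WT replicate 2 and -0.71 without WT replicate 3. U3 held 96.2% to 97.5% of the SNORD signal in KO samples, against 98.4% to 99.3% in WT samples. Without U3 the remaining SNORD rows took 0.0122%, 0.0112% and 0.0100% in KO samples, against 0.0146%, 0.00951% and 0.0188% in WT samples. These groups overlapped (exact permutation p = 0.4), and WT replicate 2 was the lowest of the 6 samples. The other short noncoding RNAs together took 0.340%, 0.292% and 0.185% of the reads in KO samples, against 1.83%, 0.362% and 0.911% in WT samples. Among them RN7SL1, the RNA of the signal recognition particle, had 83375, 63563 and 35896 normalized counts in KO samples, against 803244, 128327 and 339360 in WT samples (log2 fold change -2.51, limma adjusted p = 0.0343). Without RN7SL1 the rest took 0.107%, 0.113% and 0.0916% in KO samples, against 0.17%, 0.0741% and 0.158% in WT samples, and the groups overlapped. The part of RN7SL1 in the fall of U3 was not tested, and lower cellular U3 and less U3 carried into the fractions cannot be told apart.

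**Figure D1:**
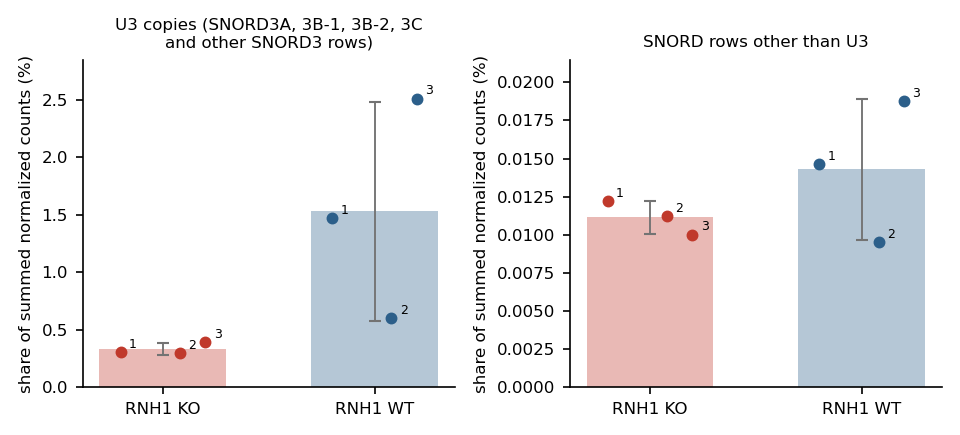
Share of the summed normalized counts (percent, linear axes from 0) in the U3 copies (left) and in all other SNORD rows (right) in RNH1 KO and RNH1 WT samples; points are samples with their replicate number, bars are means and error bars are SD (n = 3). The U3 share lies between 0.299% and 0.391% in KO samples and between 0.603% and 2.51% in WT samples, whereas the groups overlap for the rest.

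Over all members, 16 were lower and 10 higher in KO cells at a limma adjusted p under 0.1, and 43 did not pass. Thus 23.2% of the members were lower and 14.5% higher, while 24.1% of the 16652 genes tested were lower and 24.1% higher, and 48.2% were called in either direction. All 3 KO samples lay below all 3 WT samples for 13 members and above them for 11, while this held for 25.5% and 25.6% of the genes tested. Their log2 fold changes had a median of -0.03, beside 0.03 over all genes tested. Scaling to the library total, which moved the median of all genes by 0.32, gave 11 lower and 18 higher members in place of 16 and 10. At this filter the box C/D snoRNAs were therefore, as a list, called no more often than other genes. With a mean of at least 50 required, 15 members were lower and 3 higher, with a median log2 fold change of -0.71. The matching shares over all genes at that level are not given here. Most members were low: 3 members had a mean of at least 1000 normalized counts, 15 a mean of 100 to 1000 and 51 a mean under 100 (median 37.4). Of the 69 members, 63 had a mean of at least 10 in each genotype. SNORD93, SNORD114-22 and SNORD37 passed the filter only through the WT samples, and SNORD113-7, SNORD121A and SNORD62B only through the KO samples. Just inside the filter were SNORD113-7 (mean 11) and SNORD114-27 (10.6), and just outside were SNORD114-25 (9.49) and SNORD82 (7.16). The median coefficient of variation was 22.3% among KO samples and 50.6% among WT samples.

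**Figure D2:**
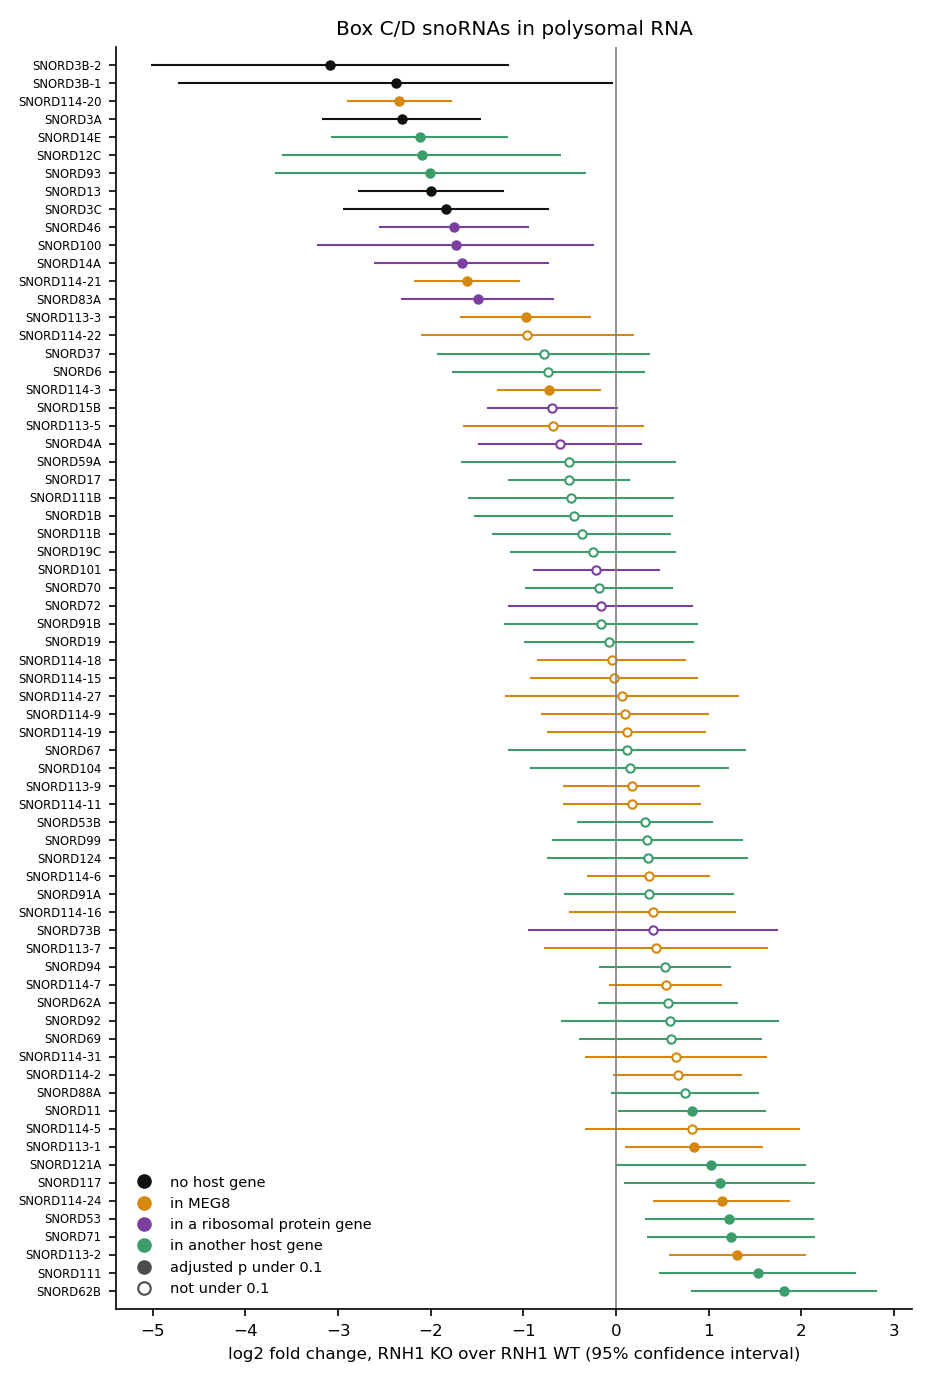
Log2 fold change (RNH1 KO over RNH1 WT, 3 samples each) of each of the 69 box C/D snoRNAs with its 95% confidence interval from limma, sorted, with colors for the kind of host gene. Filled points have an adjusted p under 0.1: 16 to the left of 0, among them the 5 members with no host gene, and 10 to the right.

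The 5 members with no host gene on their strand, the 4 U3 copies and SNORD13, were all called lower. SNORD13 (U13), which pairs with the precursor of 18S ribosomal RNA and guides its acetylation, had 48.9, 64.2 and 70.6 normalized counts in KO samples, against 390, 114 and 328 in WT samples. The groups did not overlap, and the log2 fold change was -2.0 (standard error 0.37, limma adjusted p = 0.000493). SNORD14A and SNORD14E are intronic copies of U14, which is needed for processing toward 18S ribosomal RNA. SNORD14E had 34.1, 39.8 and 18.9 in KO samples, against 115, 65.6 and 304 in WT samples (log2 fold change -2.12, standard error 0.45, limma adjusted p = 0.00138). SNORD14A had 38.8, 35.7 and 29.3 in KO samples, against 200, 42.8 and 160 in WT samples (log2 fold change -1.67, standard error 0.44, limma adjusted p = 0.00663). Neither pair of groups overlapped, though WT replicate 2 lay close to the KO samples, and without it the values were -2.62 for SNORD14E and -2.35 for SNORD14A. Of 18 rows of snoRNAs for precursor processing, 7 passed the filter and these 7 were lower, beside 24.1% of all genes tested. These 7 rows are copies of U3, U13 and U14 only, and 4 of them are the U3 copies, among which the division of reads is uncertain. The list was chosen with earlier results known. U8 (SNORD118) and U22 (SNORD22) had no read in any sample.

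**Figure D3:**
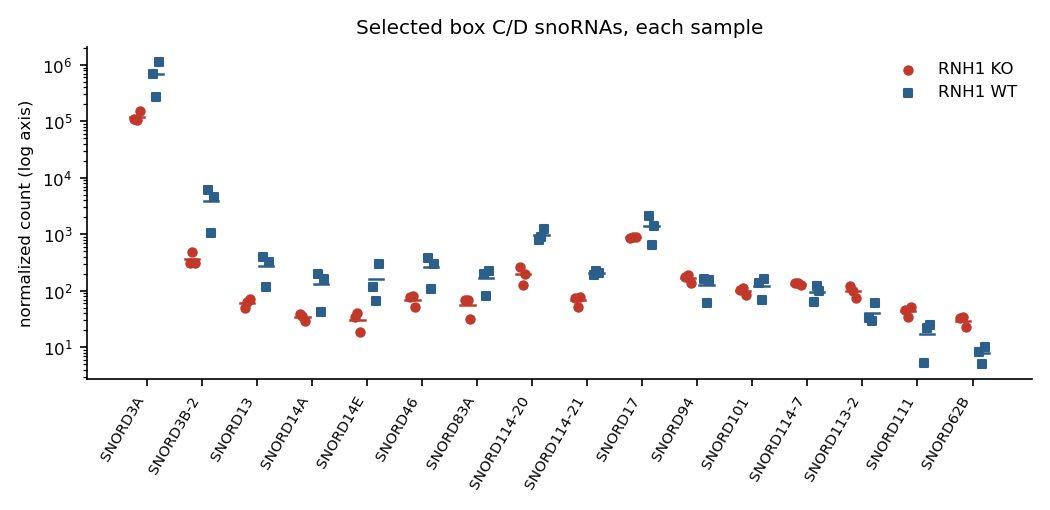
Normalized counts (log axis) of 16 box C/D snoRNAs in each RNH1 KO sample (circles) and RNH1 WT sample (squares), with lines at the group means. From SNORD3A to SNORD114-21 the groups do not overlap and KO lies below WT, whereas for SNORD17, SNORD94 and SNORD101 they overlap, and for the 4 on the right KO lies above WT.

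The listed guides of ribosomal RNA methylation did not move in 1 direction. The shares over all genes tested were 24.1% lower and 24.1% higher. The lists may miss guides: SNORD53 and SNORD11, both called higher, were counted neither for 18S nor for 28S. Of 6 tested guides listed for 18S, 2 were lower (SNORD93 and SNORD100) and 1 higher (SNORD62B), but SNORD93 and SNORD62B passed the filter only through the genotype in which they were high. Reads of mature SNORD62B cannot be told from those of SNORD62A, which has the same bases. The log2 fold change of SNORD93, -2.0, was -3.12 without WT replicate 2 and -1.15, no longer called, without WT replicate 3. The call of SNORD93 was also lost without KO replicate 1, KO replicate 3 or WT replicate 1. Of 14 tested guides listed for 28S, 1 was lower (SNORD46) and 2 higher (SNORD111 and SNORD121A). SNORD121A passed the filter only through KO samples. Its call was lost without WT replicate 2, when any KO sample was left out, and in edgeR and DESeq2. Of 2 tested guides to 5.8S, SNORD71 was higher and SNORD73B did not pass, and neither guide to U6 snRNA passed. The 2 groups of the 28S guide SNORD46 did not overlap: 76.6, 79.5 and 52.5 normalized counts in KO samples, against 388, 106 and 301 in WT samples (log2 fold change -1.75, standard error 0.38, limma adjusted p = 0.00167). The 28S guide SNORD111 lay at 46.1, 34.7 and 51.7 in KO samples, against 5.22, 21.9 and 24.9 in WT samples (log2 fold change 1.53, standard error 0.50, limma adjusted p = 0.0217, or 0.87 on the log2 scale without WT replicate 1). SNORD71, a guide to 5.8S, had 38.8, 31.6 and 37.0 in KO samples, against 15.7, 8.95 and 21.5 in WT samples (log2 fold change 1.24, standard error 0.42, limma adjusted p = 0.0276), and the call was lost without KO replicate 1 (adjusted p = 0.103) or without KO replicate 3 (adjusted p = 0.102). No member with a mean of at least 100 was called higher, so the 10 higher members are all low ones, and the choice of those named here followed from their values.

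Some members with a mean of at least 100 did not pass. SNORD17, at 237 bases the longest member outside U3, had 843, 895 and 906 normalized counts in KO samples, against 2112, 657 and 1420 in WT samples. The KO samples were tightly grouped inside the wide range of the WT samples (log2 fold change -0.51, 95% confidence interval -1.16 to 0.14, limma adjusted p = 0.2). Without WT replicate 2 the log2 fold change was -0.97 (limma adjusted p = 0.00255), and with edgeR on the recovered reads SNORD17 passed (adjusted p = 0.0717). SNORD15B, a guide to 28S in RPS3, had 138, 162 and 147 in KO samples, against 294, 122 and 384 in WT samples (log2 fold change -0.69, limma adjusted p = 0.108), and it too passed without WT replicate 2 (log2 fold change -1.17, adjusted p = 0.00146). SNORD94, a guide to U6, had 174, 189 and 138 in KO samples, against 161, 60.7 and 154 in WT samples (log2 fold change 0.53, 95% confidence interval -0.17 to 1.23, limma adjusted p = 0.220), or a log2 fold change of 0.07 without WT replicate 2. Per kilobase of annotated length, SNORD17 stood at 3719 normalized counts in KO samples and 5892 in WT samples, and SNORD94 at 1219 in KO samples and 914 in WT samples.

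Sequences of the U14 copies SNORD14A and SNORD14E, which lie in different hosts, are shown next. Those of members in RPS12, SF3B3 and PRRC2B follow, since members of 1 host share its transcript. Capitals mark TGATGA (box C) where it starts in the first 20 bases and CTGA (box D) where it starts in the last 20. SNORD14A lies at chr11:17074654-17074744 (minus strand) in an intron of RPS13. SNORD14E lies at chr11:123058077-123058161 (minus strand) in HSPA8, SNORD100 at chr6:132816802-132816877 and SNORD101 at chr6:132815307-132815379 in RPS12. SNORD111 lies at chr16:70538005-70538098 and SNORD111B at chr16:70529509-70529588 in SF3B3, and SNORD62B at chr9:131490486-131490571 in PRRC2B.
SNORD14A: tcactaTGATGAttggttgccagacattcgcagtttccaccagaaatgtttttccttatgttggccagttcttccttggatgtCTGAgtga
SNORD14E: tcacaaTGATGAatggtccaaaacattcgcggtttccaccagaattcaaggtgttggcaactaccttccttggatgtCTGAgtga
SNORD100: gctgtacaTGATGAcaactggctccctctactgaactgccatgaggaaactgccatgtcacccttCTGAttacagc
SNORD101: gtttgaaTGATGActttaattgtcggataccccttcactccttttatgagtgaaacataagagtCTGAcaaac
SNORD111: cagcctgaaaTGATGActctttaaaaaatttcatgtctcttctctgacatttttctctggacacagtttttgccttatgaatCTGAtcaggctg
SNORD111B: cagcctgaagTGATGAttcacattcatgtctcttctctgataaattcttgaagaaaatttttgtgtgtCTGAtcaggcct
SNORD62B: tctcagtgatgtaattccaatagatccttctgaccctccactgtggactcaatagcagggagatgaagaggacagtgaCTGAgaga
SNORD62A, in the same host as SNORD62B, has the same 86 bases (100% identity), so reads of the mature RNA cannot be assigned to either. Among the 65 members outside U3, TGATGA was found in this window in 39 (60%) and CTGA in 62 (95.4%). On the opposite strand of the same members the shares were 0% and 12.3%, and among 150 box H/ACA rows 0.667% and 9.33%. A match is a description of the letters, and members without one may carry a variant of the box.

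Of the 69 members 64 lie inside a host gene, 23 of them in MEG8 and 41 in 31 other hosts. Because nearly all lie in introns, reads of a mature snoRNA and of the unspliced host cannot be told apart. Of the 32 hosts, 12 were lower (37.5%), 5 higher (15.6%) and 15 did not pass, beside 24.1% lower and 24.1% higher among all genes tested. Among the 41 members outside MEG8, 5 fell with a host that fell, 3 rose with a host that rose, and no member was called in the direction opposite to a called host. SNORD93 among these falls, and SNORD62B and SNORD121A among these rises, passed the filter only through the genotype in which they were high. The other called members of these hosts, 2 lower and 4 higher, had hosts that did not pass, and 8 members did not pass although their host fell. Across these 41 pairs of members and hosts, Pearson's r of the log2 fold changes was 0.51 and Spearman's rho 0.52. This is a description across genes that share the same 6 libraries.

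For 7 of the 9 members in ribosomal protein genes the log2 fold change lay above that of the host, a difference that was not tested. Over all 41 pairs outside MEG8 this held for 25. These members stood at far lower counts than their hosts, and fold changes on this scale understate the change of low genes. RPL37 had 23323, 24948 and 20291 normalized counts in KO samples, against 210213, 121550 and 221329 in WT samples (log2 fold change -2.97, limma adjusted p = 1.77e-07). Its intronic guide SNORD72 had 26.8, 28.6 and 18.1 in KO samples, against 23.0, 14.9 and 56.7 in WT samples (log2 fold change -0.16, limma adjusted p = 0.807). The host thus fell and its snoRNA overlapped between the groups. In RPS12 (log2 fold change -1.85, limma adjusted p = 4.13e-05) the 18S guide SNORD100 had 54.4, 48.9 and 37.0 in KO samples, against 221, 45.7 and 371 in WT samples (log2 fold change -1.73, limma adjusted p = 0.0631). SNORD101 of the same host had 102, 113 and 83.5 in KO samples, against 136, 67.6 and 163 in WT samples (log2 fold change -0.21, 95% confidence interval -0.89 to 0.46, limma adjusted p = 0.625). Without WT replicate 2, SNORD101 was called lower (log2 fold change -0.59, adjusted p = 0.0703), and without WT replicate 3 or with scaling to the library total its log2 fold change was above 0 (0.041 and 0.11). The log2 ratio of SNORD100 to SNORD101 was -0.89, -1.19 and -1.15 in KO samples, against 0.70, -0.55 and 1.18 in WT samples, with no overlap. The call of SNORD100 was lost when any KO sample was left out (adjusted p up to 0.335), as it was without WT replicate 1 or 3, and its log2 fold change was -2.61 without WT replicate 2. SNORD14A was called lower together with its host RPS13, whose log2 fold change was -2.39. SNORD83A, in RPL3, had 69.2, 68.3 and 31.9 in KO samples, against 198, 79.6 and 221 in WT samples (log2 fold change -1.49, standard error 0.39, limma adjusted p = 0.00577), while RPL3 did not pass (log2 fold change -0.30, limma adjusted p = 0.3). SNORD14E also fell in a host that did not pass, the chaperone gene HSPA8 (log2 fold change -0.24, limma adjusted p = 0.402).

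**Figure D4:**
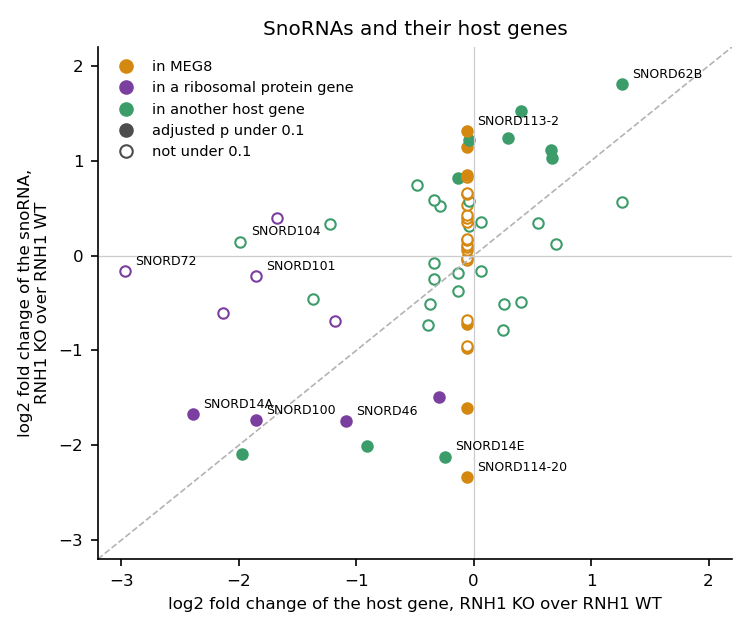
Log2 fold change (RNH1 KO over RNH1 WT) of the host gene (x axis) and of the snoRNA inside it (y axis) for the 64 members with a host; the dashed line marks equal change and filled points are snoRNAs with an adjusted p under 0.1. The MEG8 members form a vertical column at a host change of -0.06, from -2.34 to 1.31.

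The members in SF3B3 also differed from each other. In SF3B3, SNORD111 rose as given above, while SNORD111B had 19.4, 12.2 and 14.6 normalized counts in KO samples, against 10.4, 18.9 and 49.9 in WT samples (log2 fold change -0.49, limma adjusted p = 0.484). Their log2 ratio was 1.21, 1.43 and 1.75 in KO samples, against -0.88, 0.20 and -0.97 in WT samples, with no overlap, and SF3B3 did not pass (log2 fold change 0.40, limma adjusted p = 0.131). PRRC2B rose (log2 fold change 1.26, limma adjusted p = 0.000391). SNORD62B, a guide to 18S, had 32.3, 33.6 and 22.4 in KO samples, against 8.35, 4.97 and 10.2 in WT samples (log2 fold change 1.81, standard error 0.47, limma adjusted p = 0.00588). Its copy SNORD62A, to which the same mature sequence belongs, had 41.5, 34.7 and 59.4 in KO samples, against 30.3, 28.8 and 29.5 in WT samples (log2 fold change 0.56, limma adjusted p = 0.217). In both rows every KO value lay above every WT value. Because reads of the mature RNA cannot be assigned to either row, the difference between them is not read as a split. SNORD12C, in the noncoding host ZFAS1, had 38.8, 66.3 and 19.8 in KO samples, against 187, 58.7 and 388 in WT samples, so that the groups overlapped at WT replicate 2 (log2 fold change -2.10, limma adjusted p = 0.0322), and the call was lost without KO replicate 1 or 3. ZFAS1 itself was lower (log2 fold change -1.97, limma adjusted p = 2.49e-05).

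The 23 members in MEG8 come from the imprinted 14q32 cluster, where tandem copies of SNORD113 and SNORD114 lie in the introns of this noncoding RNA on chromosome 14 (100894770 to 101038859, plus strand, GRCh38). These snoRNAs are orphans with no known target in ribosomal RNA. MEG8 had 11236, 10168 and 10482 normalized counts in KO samples, against 9399, 10984 and 13123 in WT samples (log2 fold change -0.06, limma adjusted p = 0.842). Its members went both ways: 4 were lower (17.4%), 3 higher (13%) and 16 did not pass, both shares being under the 24.1% of all genes tested. Of 40 rows in MEG8, 23 were members. The sequences of 5 are shown to compare copies that fell, did not pass or rose. They lie at chr14:100981004-100981075, chr14:100981975-100982046, chr14:100963054-100963130, chr14:100927342-100927413 and chr14:100984777-100984848, in the order of the lines.
SNORD114-20: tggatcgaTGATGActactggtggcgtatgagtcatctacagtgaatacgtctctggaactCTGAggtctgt
SNORD114-21: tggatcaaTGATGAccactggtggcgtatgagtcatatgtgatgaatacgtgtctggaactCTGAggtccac
SNORD114-7: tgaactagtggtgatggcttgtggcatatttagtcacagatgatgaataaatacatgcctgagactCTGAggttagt
SNORD113-2: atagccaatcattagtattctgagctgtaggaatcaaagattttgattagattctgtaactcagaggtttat
SNORD114-24: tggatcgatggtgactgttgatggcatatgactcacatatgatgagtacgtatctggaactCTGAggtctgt
SNORD114-20 and SNORD114-21 share 84.7% of their bases, SNORD114-20 and SNORD114-24 81.9%, SNORD114-20 and SNORD114-7 64.9%, and SNORD114-20 and SNORD113-2 59.7%. The median over all pairs of the 23 was 70.1% (52.9% to 93.1%), and how far copies share reads was not measured.

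SNORD114-20, the highest of the cluster, fell most. Its normalized count was 263, 127 and 195 in KO samples, against 786, 892 and 1223 in WT samples. The groups lay far apart and WT replicate 2 was not low here. The mean was 20.2% of the WT mean (log2 fold change -2.34, standard error 0.26, limma adjusted p = 4.07e-06). SNORD114-21, the next copy along MEG8, had 74.7, 52.0 and 77.5 in KO samples, against 192, 221 and 206 in WT samples (log2 fold change -1.61, standard error 0.27, limma adjusted p = 0.000189). The copy after it, SNORD114-22, had 12.9, 6.12 and 6.89 in KO samples, against 13.6, 30.8 and 11.3 in WT samples and did not pass (log2 fold change -0.96, limma adjusted p = 0.171). Smaller falls were seen for SNORD113-3, with 162, 94.8 and 131 in KO samples, against 163, 211 and 450 in WT samples (log2 fold change -0.97, limma adjusted p = 0.0264), and for SNORD114-3 (-0.72, adjusted p = 0.0367). The call of SNORD113-3 was lost without KO replicate 2 (adjusted p = 0.108) or WT replicate 3 (adjusted p = 0.155), and that of SNORD114-3 without any of the KO samples.

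SNORD113-2 rose: it had 124, 101 and 75.8 normalized counts in KO samples, against 33.4, 28.8 and 61.2 in WT samples (log2 fold change 1.31, standard error 0.34, limma adjusted p = 0.00610). SNORD114-24, less than 4 kb beyond SNORD114-20, had 78.4, 47.9 and 62.9 in KO samples, against 21.9, 29.8 and 31.7 in WT samples (log2 fold change 1.14, standard error 0.35, limma adjusted p = 0.0148). In both the groups did not overlap, and the call of SNORD114-24 was lost without KO replicate 1 (adjusted p = 0.101). SNORD114-7, which did not pass, had 136, 137 and 127 in KO samples, against 63.6, 122 and 98.6 in WT samples (log2 fold change 0.53, 95% confidence interval -0.07 to 1.14, limma adjusted p = 0.147). It was called higher without WT replicate 2 (log2 fold change 0.74, adjusted p = 0.0358) and with scaling to the library total (0.86, adjusted p = 0.0223). Relative to MEG8 in the same library, the log2 ratio of SNORD114-20 was -5.41, -6.31 and -5.74 in KO samples, against -3.58, -3.62 and -3.42 in WT samples. That of SNORD113-2 was -6.49, -6.64 and -7.09 in KO samples, against -8.09, -8.52 and -7.72 in WT samples. Neither ratio overlapped between the groups, and they moved in opposite directions. The pairs were chosen after their values were seen, so the ratios are given as a description. Per kilobase, SNORD114-20 stood at 2713 normalized counts in KO samples and 13429 in WT samples, and SNORD113-2 at 1391 in KO samples and 571 in WT samples.

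**Figure D5:**
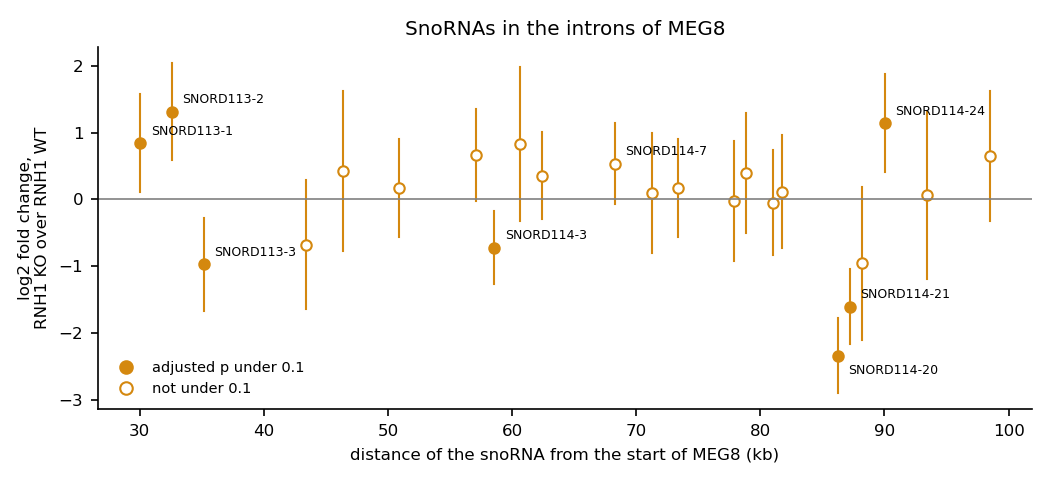
Log2 fold change (RNH1 KO over RNH1 WT) with 95% confidence interval of the 23 members in MEG8 against their distance from the start of MEG8 (kb); filled points have an adjusted p under 0.1. SNORD114-20 (-2.34) and SNORD114-21 (-1.61) lie side by side about 86 to 87 kb from the start, next to SNORD114-24 (1.14) at 90 kb.

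The proteins that bind box C/D snoRNAs were for the most part not called. Among all genes tested, 24.1% were lower and 24.1% higher, and 48.2% were called in either direction. Of the 4 core proteins SNU13, which binds the box C/D motif first, was lower, with 4553, 4704 and 4023 normalized counts in KO samples, against 10865, 7002 and 10750 in WT samples (log2 fold change -1.08, standard error 0.22, limma adjusted p = 0.00091). FBL (log2 fold change -0.18, limma adjusted p = 0.495), NOP56 (-0.33, adjusted p = 0.218) and NOP58 (-0.13, adjusted p = 0.645) did not pass. Of 13 assembly factors 3 were lower and 10 did not pass. The lower ones were ZNHIT3, NUFIP1 and NCBP2 (log2 fold change -1.08, -0.51 and -0.45, limma adjusted p = 0.000517, 0.0747 and 0.0759). Of 10 proteins of the U3 particle and its neighbours, IMP3 was lower (log2 fold change -0.80, limma adjusted p = 0.00399), NOP14 and UTP4 were higher (0.58 and 0.47, adjusted p = 0.0487 and 0.0691), and 7 did not pass.

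Box H/ACA snoRNAs, which guide pseudouridylation, and the scaRNAs of Cajal bodies were set beside the box C/D snoRNAs in the same fit. Of 49 box H/ACA rows, 8 were lower and 9 higher (16.3% and 18.4%, median log2 fold change 0.22). Of 11 scaRNAs, 4 were lower (36.4%) and none was higher (median -0.09). Among all genes tested, 24.1% were lower and 24.1% higher. By unadjusted p under 0.05, 4 scaRNAs passed, all of them lower. The scaRNA share of the reads was 0.0158%, 0.0123% and 0.00934% in KO samples, against 0.0418%, 0.0298% and 0.0357% in WT samples. The box H/ACA share overlapped, with 0.0216%, 0.0233% and 0.0254% in KO samples, against 0.0258%, 0.0103% and 0.0351% in WT samples. No difference between these classes was tested.

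The other 215 SNORD rows were not members. No read was counted in any sample for 183 of them, and 127 of these 183 (69.4%) overlap an exon of another gene on their strand. Among the 32 rows with reads but a mean under 10 the overlap was found for 15, and among the 69 members for 1, SNORD37, in an exon of EEF2. SNORD118 (U8), SNORD22 and SNORD83B, all inside host exons, were among those at 0. How reads in such overlaps were assigned was not tested, so a value of 0 there does not show that the snoRNA was absent. The imprinted 15q11 cluster, with 83 rows and no member, was not tested.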

How the data were processed

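Stranded total RNA libraries from polysome fractions were mapped to GRCh38 by the authors and counted per gene. HISAT2 2.2.1, featureCounts 2.0.1 and DESeq2 1.36.0 are named in the submitters' processing notes, and the published methods name other versions. The strand setting and the handling of reads with several places were not given. The deposited values are a signal: counts of reads per gene, scaled by the authors with 1 DESeq2 size factor for each sample. Whole reads were recovered for 100% of the nonzero values (tolerance 1e-06). Deposited columns with the authors' means, log2 fold changes, standard errors, test score and p-values were not used.

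The 16652 genes with a mean of at least 10 were tested with limma 3.58.1 (R 4.3.3) on log2(value + 1), with genotype alone in the model and limma's trend and robust options on. A call was a Benjamini-Hochberg adjusted p under 0.1 over all genes tested. Fold changes on this scale understate the change of low genes. Alternatives included edgeR 4.0.16 and DESeq2 1.42.0 on the recovered reads. The fits were first tested on simulated data, with the same setting of spread for every gene and both genotypes. That test did not cover the wider spread of the WT samples seen among the members. Hosts (genes spanning a member on its strand), lengths and sequences come from GENCODE 44. By annotation name 30 further SNORD rows carry no symbol in the table, 1 of them with a mean of at least 10, and were not members. The members and gene lists were chosen with earlier results of these data known. Named were the 10 highest members, the processing snoRNAs, called members with a mean of at least 100 and groups apart (up to 10 in each direction), the 5 of that level nearest to no change, their hosts and the protein lists. Other members were named after their values had been seen.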

Additional observations from a re-analysis of the deposited data

How the results depend on the processing

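All 16 lower calls held in edgeR and in DESeq2, run on recovered reads, as did 7 of the 10 higher ones. Of the members called lower 8 stayed called in every fit that left out 1 sample (SNORD114-20, SNORD3A, SNORD14E, SNORD13, SNORD46, SNORD14A, SNORD114-21 and SNORD83A), and of those called higher 3 did (SNORD113-2, SNORD111 and SNORD62B, the last of which passed the filter only through KO samples). SNORD62B also shares its bases with SNORD62A, which was not called. Leaving out each sample in turn gave 14 to 30 called members (10 to 21 lower and 4 to 11 higher), the fewest without KO replicate 1, and a median log2 fold change of -0.38 (without WT replicate 2) to 0.15. Requiring a mean of at least 50 gave 15 lower and 3 higher members and a median of -0.71, by its construction the higher-level members. Scaling to the library total moved the median of all genes by 0.32 and gave 18 higher members and a median of 0.29, with 11 of the 16 lower and the 10 higher calls kept and no called member changing sign. At an adjusted p under 0.05, 6 members were higher. The share of reads in SNORD rows stayed lower in KO samples with 1 sample left out, the KO minus WT difference being -1.66 to -0.71 percentage points. The cause of the other shifts was not tested. A set of 25 members was followed through the alternatives. It holds SNORD53, whose values are not given above, and most members named by rule. It leaves out SNORD93, SNORD121A and SNORD114-3, whose calls were each lost in several alternatives. For these 25 members, 377 of 420 alternatives kept direction and call, 28 lost the call and 13 gained it. In the other 2 SNORD101, not called in either, changed sign (0.11 with the library total and, with 1 sample left out, a range of -0.59 without WT replicate 2 to 0.041 without WT replicate 3). Replicate numbers did not pair the samples (correlations of deviations of -0.16, -0.19 and -0.27), and with the replicate block 16 members were lower and 9 higher, with 15 of the 16 lower calls shared. Counting error is largest for the 51 members with a mean under 100 normalized counts.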
